A study of Mus musculus with 18 samples.

Results

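The interval from 0.5 to 1 h after a stimulus was examined in macrophages cultured from the bone marrow of C57BL/6 mice with 30% L929-conditioned medium. The 4 stimulated libraries of 1 h were set against the 4 stimulated libraries of 0.5 h, paired by genotype and stimulus, which gave 4 pairs and used 8 of the 18 libraries of the series. The genotypes were wild-type and RelA-TA-KI, in which Rela carries a knock-in allele, and the labels name no other allele. Rela encodes RelA (p65), an NF-kB subunit with a transactivation domain. The stimuli were lipopolysaccharide (LPS, 100 ng/ml) and the cytokine TNF (10 ng/ml), added on day 7 of culture, and the labels give an age of 12 days for every group without saying of what. Unstimulated libraries, 1 per genotype, served to sort genes by what they had done by 0.5 h. Each genotype and condition had 1 library of poly(A) RNA. Where a pair of values is given for 1 time, wild-type comes first and knock-in second. The labels name no separate animals or cultures, so p-values measure how alike the changes were over these libraries, and genotype and culture cannot be told apart.

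Signals from TLR4, the LPS receptor, and from TNF receptors reach the MAP kinases and NF-kB within minutes. Immediate early genes such as Fos and Egr1 need no new protein to be transcribed, and their short-lived mRNAs are known to disappear again quickly. Phosphatases, inhibitors and mRNA-destabilizing proteins made in this early phase limit the response. TLR4, unlike the TNF receptors, also signals through the adaptor Ticam1 (TRIF) to IRF3, which drives Ifnb1, the gene of interferon beta, and a set of antiviral genes.

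Total counts ran from 4802301 to 5847095 in these 8 libraries (4663650 to 6721917 in all 18), and 14097 to 15080 genes were detected in each. The 15 macrophage markers summed to between 27100 and 27800 CPM (counts scaled to library size) at 0.5 h and between 27500 and 28400 CPM at 1 h. The 11 neutrophil markers summed to 217 to 365 CPM at 0.5 h and 267 to 469 CPM at 1 h, and the 8 stromal markers to 92.2 to 308 and 85.9 to 268 CPM, with Lum at 0. Lymphocyte markers summed to 67.6 to 97.2 and 76.2 to 119 CPM, with Cd3e, Cd3g and Ncr1 at 0, and mast cell markers to at most 2.39 CPM, with Mcpt4 and Tpsb2 at 0. Of the 9 lymphocyte markers, 7 had fewer than 10 counts over the 8 libraries. Only Il7r of the lymphocyte list and Hdc of the mast cell list were tested. No tested member of these lists changed between the times by edgeR's quasi-likelihood test of all 18 libraries at an adjusted p of 0.05. The same test of the 8 libraries alone, with the pair as a block, did call Fn1 and Il7r. Fn1, a stromal marker, was lower at 1 h (log2 change -0.30, adjusted p = 0.0069) and Il7r higher (0.28, adjusted p = 0.0064). In bulk RNA, fewer cells of a type and less RNA per cell cannot be told apart.

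Over the 4 pairs, 189 genes were higher and 149 lower at 1 h than at 0.5 h, or 1.67% and 1.32% of the 11308 genes tested (edgeR's quasi-likelihood test, Benjamini-Hochberg adjusted p under 0.05). The largest falls among the named genes were those of the early transcription factors Egr1 and Fos, the phosphatase Dusp6, and Ier2 and Btg2. The largest rises among them were those of Slc7a11, a cystine importer, Acod1, the enzyme that makes itaconate, and Cdc42ep2, an effector of Cdc42. The call of Cdc42ep2 did not hold under every fit with 1 pair left out, where its log2 change ran from 2.01 to 2.45. Of the called genes, 44 rose and 30 fell by at least 1 on the log2 scale. The same direction in all 4 pairs was seen in 183 of the 189 and 142 of the 149. Genes whose pairs disagree are less likely to be called, so these 2 counts are descriptions. The median change of all tested genes was near 0 (-0.0025 on the log2 scale). When library totals replaced TMM scaling the split became 154 higher and 186 lower. With 1 pair left out, 41 to 93 genes were called higher and 25 to 46 lower. All fold changes are log2 values of 1 h over 0.5 h with a standard error worked back from the test.

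**Figure D1:**
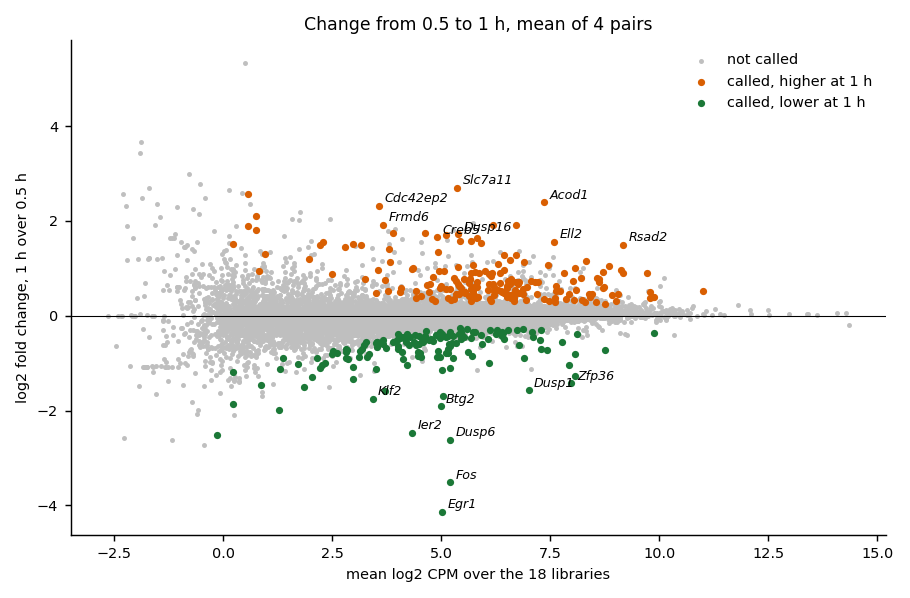
Each point is 1 of the 11308 tested genes, with its mean log2 CPM over the 18 libraries on the x axis and the mean log2 fold change from 0.5 to 1 h over the 4 pairs on the y axis. The 189 genes called higher are orange and the 149 called lower are green, with Egr1 (-4.14) and Fos (-3.52) lowest among the named genes.

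Genes were sorted per stimulus by both steps, which share the 0.5 h libraries, so each class is a description. A gene already falling had risen by 0.5 h by at least 1 on the log2 scale with an adjusted p under 0.05 and was then called lower at 1 h. A gene first rising was not called at 0.5 h, lay within 0.5 of the unstimulated level, and was called higher at 1 h by at least 1. After LPS, 10 genes were already falling: Btg2, Jun, Zfp36, Klf2, Ier2, Fos, Nr4a1, Ier3, Egr1 and the gene model Gm17024. The LPS calls of Jun, Klf2, Zfp36, Nr4a1 and Fos did not hold under every fit with 1 pair left out. After TNF there were 11, with Btg2, Zfp36, Ier2, Nr4a1, Ier3 and Egr1 in both sets and Phlda1, Ccl7, Ccl4, Klf6 and Plk2 in the TNF set. First rising were 31 genes after LPS and 6 after TNF, of which Creb5, Dusp16, Ell2 and Ankrd33b were in both sets. A further 18 genes after LPS and 0 after TNF had risen by 0.5 h and rose again, while 54 and 25 had risen and were not called between the times. At the edges of the classes, Klf2 entered the LPS falling set with an adjusted p of 0.0497 and Ccnl1 stayed outside it with 0.071, and Zfp263 entered the first rising set with a log2 change of 1.00 while Il17ra, at 0.98, did not.

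Promoter sequences were available from RefSeq (GRCm38.p6, the build of the counts) for 9 of the 15 genes already falling after either stimulus and for 29 of the 33 first rising. The 200 bases before the start of 5 genes are shown because they hold, in capitals, matches to a TATA box or to sites that early and interferon-linked transcription factors are known to bind. They lie at chr12:85473690-85473889 (Fos, plus strand), chr7:28379229-28379428 (Zfp36, minus), chr1:134079156-134079355 (Btg2, minus), chr13:75707284-75707483 (Ell2, plus) and chr12:26456453-26456652 (Rsad2, minus), and each is written 5′ to 3′ on the gene's strand. Fos, Zfp36 and Btg2 were already falling, and Ell2 and Rsad2 first rising.
Fos: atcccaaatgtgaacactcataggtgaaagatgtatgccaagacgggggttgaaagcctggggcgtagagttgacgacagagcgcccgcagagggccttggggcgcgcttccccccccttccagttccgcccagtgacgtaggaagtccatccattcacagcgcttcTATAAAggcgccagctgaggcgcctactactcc
Zfp36: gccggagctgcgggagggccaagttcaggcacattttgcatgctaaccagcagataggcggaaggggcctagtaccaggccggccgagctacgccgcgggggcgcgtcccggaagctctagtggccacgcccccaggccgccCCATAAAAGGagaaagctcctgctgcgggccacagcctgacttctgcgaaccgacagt
Btg2: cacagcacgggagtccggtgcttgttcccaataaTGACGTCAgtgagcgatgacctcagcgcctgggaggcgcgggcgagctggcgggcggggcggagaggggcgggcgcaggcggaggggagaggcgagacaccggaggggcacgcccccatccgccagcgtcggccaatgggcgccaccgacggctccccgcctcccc
Ell2: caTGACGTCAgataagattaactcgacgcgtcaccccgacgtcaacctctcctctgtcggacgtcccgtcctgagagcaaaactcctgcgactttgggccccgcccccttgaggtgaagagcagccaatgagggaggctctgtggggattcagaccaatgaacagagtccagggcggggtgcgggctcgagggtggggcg
Rsad2: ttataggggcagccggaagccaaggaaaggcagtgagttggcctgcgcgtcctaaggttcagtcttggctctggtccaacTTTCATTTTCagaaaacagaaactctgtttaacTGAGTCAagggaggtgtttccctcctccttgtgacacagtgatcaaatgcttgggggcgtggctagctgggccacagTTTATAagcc
The capitals mark a TATA box (TATAAA) in Fos, a CArG box, the site of serum response factor, in Zfp36, and the full cAMP response element (TGACGTCA) in Btg2 and Ell2. In Rsad2 they mark the core of an interferon-stimulated response element, an AP-1 site (TGANTCA) and a TATA box read on the other strand.

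All sites were searched on both strands over the 250 bases before each start, as counts of letters that do not show a bound factor, and the TATA box and CArG box can overlap. The full cAMP response element stood in 2 of the 9 falling genes (Btg2 and Plk2) and 2 of the 29 first rising (Creb5 and Ell2), against 3.15% of the 8909 tested genes with a promoter. The AP-1 site stood in 0 of 9 and 5 of 29, against 5.38%. NF-kB sites stood in 2 of 9 (Fos and Ier3) and 3 of 29 (Bbc3, Gch1 and Oasl1), against 5.53%. A CArG box was found in Zfp36 alone of these genes, against 1.28% of all. Egr1 and Ier2 were among the genes without a promoter sequence, and sites beyond the 250 bases were not searched in any gene. The GC box GGGCGG stood in 9 of 9 and 19 of 29, against 64.4%. The core of the interferon-stimulated response element stood in 1 of 9 (Plk2) and 3 of 29 (Ifi203, Ifi205 and Rsad2), against 3.52%. A TATA box stood in 1 of 9 (Fos) and 3 of 29 (Gch1, Irf4 and Rsad2), against 7.72%. Genes with several distinct starts were searched at each, and a match at any start counted. The mean number of starts was 1.0 per falling gene, 1.41 per first rising gene and 1.28 over all tested genes with a promoter. With so few promoters per class and unequal numbers of starts these are descriptions.

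The transcription factors Egr1 and Fos had the largest falls. Egr1 (ENSMUSG00000038418.7), a zinc-finger factor, stood at 769.9 and 1499.5 CPM at 0.5 h of LPS and at 68.1 and 92.7 CPM at 1 h. After TNF it went from 367 to 15.8 CPM in wild-type and from 627 to 27.3 CPM in knock-in cells. The lowest 0.5 h library lay above the highest 1 h library, and the falls ran from 11.3-fold to 23.1-fold by pair. The mean change was -4.14 ± 0.28 (adjusted p = 3.2e-05, edgeR's quasi-likelihood test), and at 3 h of TNF Egr1 was at 6.24 and 7.50 CPM, under its unstimulated 10.0 and 20.1 CPM. Fos (ENSMUSG00000021250.11, chr12:85473890-85477273, mm10), the AP-1 subunit whose promoter is shown above, stood at 302 and 808 CPM at 0.5 h of LPS in wild-type and knock-in cells and at 41.6 and 50.3 CPM at 1 h. After TNF it went from 83.5 to 8.50 CPM and from 164 to 10.9 CPM. These groups did not overlap either, and the mean change was -3.52 ± 0.32 (adjusted p = 0.00024). Fos counts as falling without an early rise after TNF, since its 0.5 h value there (2.33 over unstimulated cells) had an adjusted p of 0.067.

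Of the 12 tested AP-1 factors, 2 fell over the 4 pairs (1.32% of all tested genes did), Fos and its partner Jun (-1.27 ± 0.17, adjusted p = 0.0018), and none rose by edgeR's quasi-likelihood test. Jun stood at 579 and 1253 CPM at 0.5 h of LPS and 263 and 553 CPM at 1 h in wild-type and knock-in cells, and after TNF went from 349.9 to 137 CPM and from 639 to 242 CPM. Jun was higher in the knock-in library of each of these conditions. The 0.5 h and 1 h groups overlapped across conditions though each pair fell. The LPS call of Jun was lost with any pair left out, with an LPS change of -1.18 to -1.14 over those fits. Fosb, Junb and Atf3 had risen by 0.5 h after both stimuli and had mean changes of -0.18 ± 0.19, -0.35 ± 0.20 and 0.11 ± 0.09 that did not pass the test. Maff, a small Maf factor, rose after LPS (1.18 ± 0.21, adjusted p = 0.01), from 57.2 and 26.1 CPM to 120.1 and 64.6 CPM. The list's median change was 0.04, against -0.003 over all tested genes.

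Of the 17 tested EGR, NR4A and IER early genes, 5 fell over the 4 pairs (Egr1, Ier2, Ier3, Nr4a1 and Plk2) and none rose, beside 1.32% lower and 1.67% higher of all tested genes, with a list median of -0.73. The mean fall of Plk2 came from TNF (-1.40, against -0.06 after LPS). Ier2, an immediate early nuclear protein, stood at 190.0 and 239.5 CPM at 0.5 h of LPS and 47.1 and 18.2 CPM at 1 h, and after TNF at 94.8 and 90.7 CPM and then 27.8 and 14.2 CPM. All 0.5 h libraries lay above all 1 h libraries (-2.47 ± 0.23, adjusted p = 0.00019), although a fit of the 8 libraries alone with the pair as a block ended the call (adjusted p = 0.0767). Nr4a1 (Nur77), an orphan nuclear receptor, went from 54.5 and 81.8 to 31.8 and 36.2 CPM after LPS and from 52.7 and 46.7 to 14.2 and 17.3 CPM after TNF, again without overlap (-1.33 ± 0.14, adjusted p = 0.00012). Ier3, a regulator of apoptosis, went from 162 and 144 to 49.1 and 39.5 CPM after LPS and from 48.6 and 35.8 to 13.9 and 13.7 CPM after TNF (-1.70 ± 0.14, adjusted p = 3.2e-05). Within each genotype its TNF library of 0.5 h stood below its LPS library of 1 h, so the groups overlapped although each pair fell. Egr2, with a mean change of -1.16 ± 0.44, and Nr4a3, with 1.69 ± 0.44, did not pass the test (adjusted p = 0.26 and 0.061).

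Of 11 tested regulators of mRNA decay and growth, 2 fell and 2 rose over the 4 pairs (1.32% and 1.67% of all tested genes). Btg2, an antiproliferative protein that recruits the deadenylase complex, went from 249 and 297 CPM to 109 and 82.7 CPM after LPS and from 146 and 112 CPM to 27.6 and 24.6 CPM after TNF. Its change was -1.91 ± 0.10 over the 4 pairs (adjusted p = 3.8e-07), and it was called in the mean, LPS and TNF comparisons with any pair left out. The fit of the 8 libraries with the pair as a block ended the mean calls of Btg2 (-1.84, adjusted p = 0.0589), Zfp36 (0.0678), Zc3h12c (0.0872) and Klf2 (0.0576). Zfp36 (tristetraprolin), which destabilizes cytokine mRNAs, went from 1052 and 1118 to 444 and 453 CPM after LPS and from 286 and 259 to 67.4 and 124 CPM after TNF (-1.42 ± 0.16, adjusted p = 0.00044). At 3 h of LPS it stood at 504 and 661 CPM, while Btg2 was at 16.0 and 14.2 CPM. In the same list, Zc3h12c, a CCCH-type ribonuclease of the Regnase family, rose from 71.4 and 34.2 to 486 and 122 CPM after LPS (mean change 1.91 ± 0.35, adjusted p = 0.018), and Btg1 rose by 0.52 ± 0.12 (adjusted p = 0.038). The Zc3h12c call was lost in 3 of the 4 fits that leave out a pair (adjusted p up to 0.243) and that of Btg1 in all 4 (0.156 to 0.313). Klf2, a factor of quiescence, went from 36.7 and 50.0 to 21.0 and 11.9 CPM after LPS and from 32.1 and 26.0 to 8.65 and 5.46 CPM after TNF (-1.75 ± 0.26, adjusted p = 0.0031), a call lost without either TNF pair (adjusted p up to 0.0792).

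**Figure D2:**
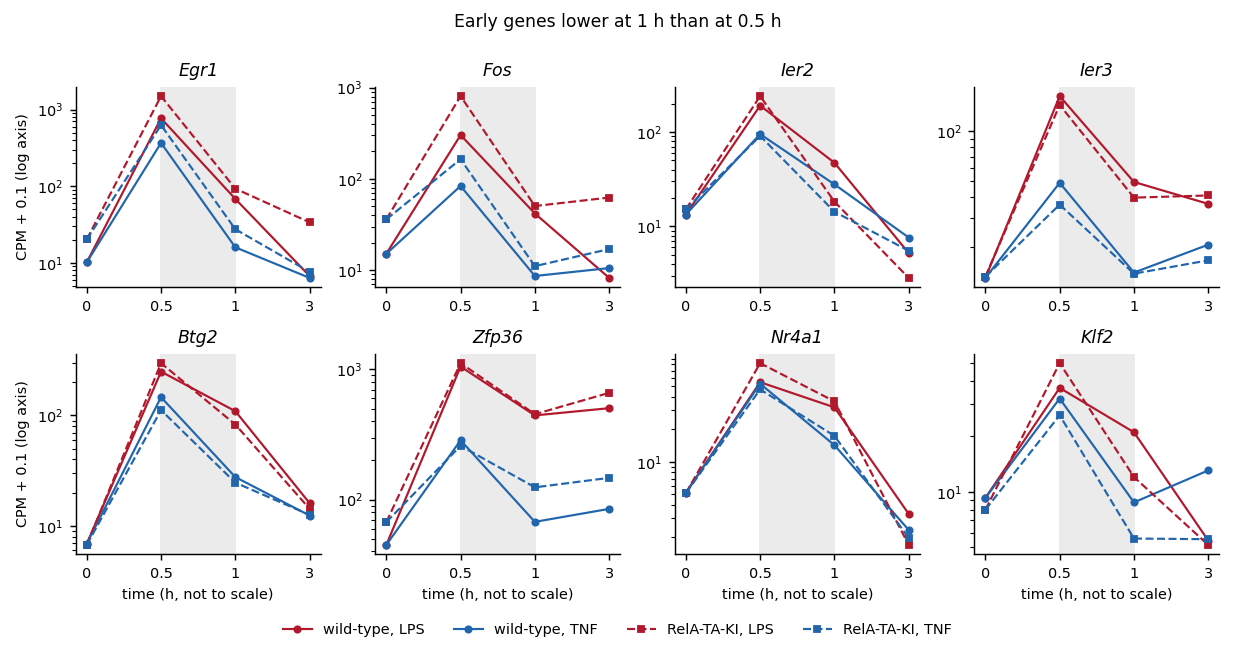
CPM on a log axis (0.1 added to each value) at 0, 0.5, 1 and 3 h for 8 genes already falling at 1 h of LPS, 1 line per genotype and stimulus and 1 library per point. In all 8 panels each of the 4 lines drops across the shaded interval from 0.5 to 1 h, and Zfp36 after LPS levels off at 504 and 661 CPM at 3 h.

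Of 13 tested phosphatases and Sprouty-family proteins that restrain MAP kinases, 3 rose and 2 fell over the 4 pairs, beside 1.67% and 1.32% of all tested genes, and the others, Spry1 and Spry2 among them, did not pass the test. Dusp6, the phosphatase of ERK, was near its unstimulated level (172 and 176 CPM) at 0.5 h, with 143 and 141 CPM after LPS and 123 CPM in both genotypes after TNF. It then stood at 26.1 and 29.1 CPM at 1 h of LPS and 11.04 and 22.9 CPM at 1 h of TNF, with no overlap (-2.62 ± 0.37, adjusted p = 0.005), and the call was lost without the wild-type LPS pair or the wild-type TNF pair (largest adjusted p = 0.0853). Dusp1, which acts on p38 and JNK, went from 822 and 1548 to 368 and 1108 CPM after LPS and from 198 and 374 to 33.9 and 93.8 CPM after TNF (-1.57 ± 0.33, adjusted p = 0.033), and leaving out any of the 4 pairs, or the pair block (adjusted p = 0.218), ended its call. Dusp16, a phosphatase of JNK and p38, stood at 24.6 and 21.2 CPM at 0.5 h of LPS and 99.5 and 76.3 CPM at 1 h, and after TNF went from 25.0 and 22.9 to 80.9 and 55.7 CPM. All 1 h libraries lay above all 0.5 h libraries (1.72 ± 0.13, adjusted p = 9e-06). Dusp14 (1.52 ± 0.36, with 14 counts over both genotypes at 0.5 h of LPS and 13 at 0.5 h of TNF) and Spred1 (0.46 ± 0.10) were the other members that rose, and the Dusp14 call was lost with any pair left out (adjusted p 0.192 to 0.396).

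Falls without an early rise were called in 83 genes after LPS and in 9 after TNF, beside the 10 and 11 that fell after one. Map3k1, a kinase of the JNK pathway, went from 97.5 and 117 to 45.8 CPM in both genotypes after LPS and from 87.3 and 103 to 51.3 and 58.8 CPM after TNF (-1.002 ± 0.092, adjusted p = 5.1e-05). Zfp292 went from 53.7 and 60.1 to 27.8 and 33.5 CPM after LPS and from 47.8 and 52.0 to 26.1 and 27.1 CPM after TNF (-0.90 ± 0.07, adjusted p = 7.6e-06). Zfp710 fell by 0.88 ± 0.10 on the log2 scale and returned to 163 and 191 CPM at 3 h of LPS, above its unstimulated 106 and 115 CPM. Symbols that start with Zfp, Zbtb, Zkscan or Zscan, mostly zinc-finger genes, were counted after these values were seen. Of 348 tested, 25 fell and 10 rose over the 4 pairs, where 1.32% and 1.67% of all tested genes did. After LPS 26 fell and 6 rose, where 0.858% and 1.47% of all tested genes did. The share that rose after LPS was near that of all genes, and the median LPS change was -0.34 against -0.003 over all tested genes. After TNF 3 fell and 1 rose, where 0.177% and 0.141% of all tested genes did. The median TNF change was 0.022 against 0.003 over all tested genes, so the lower median was seen after LPS only. Of the list of regulators known for short-lived mRNA in resting cells, 5 of 19 fell over the 4 pairs (Id1, Id3, Myc, Rgs1 and Txnip) and none rose, beside 1.32% and 1.67% of all tested genes. The mean falls of Txnip and Rgs1 came from 1 stimulus each. Txnip changed by -1.90 after LPS and 0.52 after TNF, and Rgs1 by 0.015 after LPS and -1.615 after TNF. The calls of Id1 and Id3 were lost with any pair left out (adjusted p up to 0.454), that of Myc in 2 of the 4 fits (up to 0.0891) and that of Rgs1 without the wild-type TNF pair (0.0832). Myc, for one, went from 116 and 112 to 67.2 and 76.7 CPM after LPS and from 71.5 and 75.6 to 20.0 and 31.5 CPM after TNF (-1.10 ± 0.16, adjusted p = 0.0027), and the pair block ended its call (adjusted p = 0.161).

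Among the genes first rising between 0.5 and 1 h, Creb5, Dusp16, Ell2 and Ankrd33b met the rule after both stimuli. The TNF call of each was lost without either TNF pair. With 1 pair left out in turn, the TNF change ran from 1.495 to 1.585 for Creb5 and 1.28 to 1.69 for Dusp16. For Ell2 it ran from 1.239 to 1.334, and for Ankrd33b from 1.123 to 1.185. Creb5, a bZIP factor of the ATF family, was at 11.3 and 13.6 CPM at 0.5 h of LPS against 10.0 and 12.0 CPM in unstimulated cells, and at 36.4 and 49.1 CPM at 1 h. After TNF it went from 9.71 and 13.8 to 27.4 and 41.3 CPM. The 1 h libraries all lay above the 0.5 h libraries (1.66 ± 0.10, adjusted p = 1.8e-06). Ell2, a subunit of the super elongation complex of RNA polymerase II (ENSMUSG00000001542.6, chr13:75707484-75772356, mm10), went from 84.5 and 98.1 to 284 and 365 CPM after LPS and from 79.0 and 93.3 to 199.5 and 220.2 CPM after TNF, without overlap (1.56 ± 0.14, adjusted p = 9.2e-05). Ankrd33b, an ankyrin-repeat gene, went from 67.0 and 66.2 to 194 and 159 CPM after LPS and from 68.4 and 66.8 to 149 and 152 CPM after TNF (1.28 ± 0.13, adjusted p = 0.00011). Within each time its genotypes lay closer together than the times did. At 3 h Ankrd33b was back at 89.5 and 68.9 CPM after LPS, whereas Ell2 stood at 312 and 318 CPM.

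Slc7a11 had the largest mean rise of all called genes. It stood at 18.3 and 5.34 CPM at 0.5 h of LPS and 157 and 50.7 CPM at 1 h, and after TNF went from 13.4 and 8.66 to 80.0 and 31.1 CPM, higher in wild-type than in knock-in cells at each of these points. The mean rise was 2.69 ± 0.36 (adjusted p = 0.0031), and the call was lost without the wild-type TNF pair (adjusted p = 0.0961). Sgms1, a sphingomyelin synthase, went from 32.9 and 39.8 to 164 and 119 CPM after LPS and from 36.6 and 40.3 to 111 and 80.8 CPM after TNF (1.64 ± 0.20, adjusted p = 0.0011). Frmd6, a FERM-domain protein of the Hippo pathway, rose after LPS from 7.25 and 13.1 to 50.2 and 63.2 CPM (2.52 ± 0.42, adjusted p = 0.011) and was back at 11.5 and 10.8 CPM at 3 h. Frmd6 was not called for the LPS change without either LPS pair (adjusted p up to 0.299). Other named genes with large mean rises were Stx11, a syntaxin (1.70 ± 0.24), Zswim4 (1.58 ± 0.11) and Ifi205 (1.75 ± 0.27). Another was Noct, a circadian NADP(H) phosphatase gene that overlaps the gene model Gm38357 on its strand (1.74 ± 0.38). The Noct call was lost with any pair left out (adjusted p 0.0888 to 0.237), and those of Stx11 and Ifi205 without the wild-type TNF pair (0.053 and 0.141). Of the late LPS effector list, 4 of 22 rose over the 4 pairs, Slc7a11, Acod1 (2.40 ± 0.47), Arg2 (2.10 ± 0.38) and Mmp13 (1.58 ± 0.16), and none fell, beside 1.67% and 1.32% of all tested genes. The Acod1 call was lost in 3 of the 4 fits that leave out a pair (adjusted p up to 0.369) and that of Arg2, which overlaps Vti1b, in 2 (up to 0.41). The pair block ended the mean calls of Acod1 (adjusted p = 0.168), Frmd6 (0.0958), Mmp13 (0.0838), Sgms1 (0.0672) and Zswim4 (0.0626). Acod1 went from 32.1 and 7.93 to 508 and 55.9 CPM after LPS, and its knock-in library at 1 h of LPS stood near its wild-type library at 1 h of TNF (67.7 CPM).

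**Figure D3:**
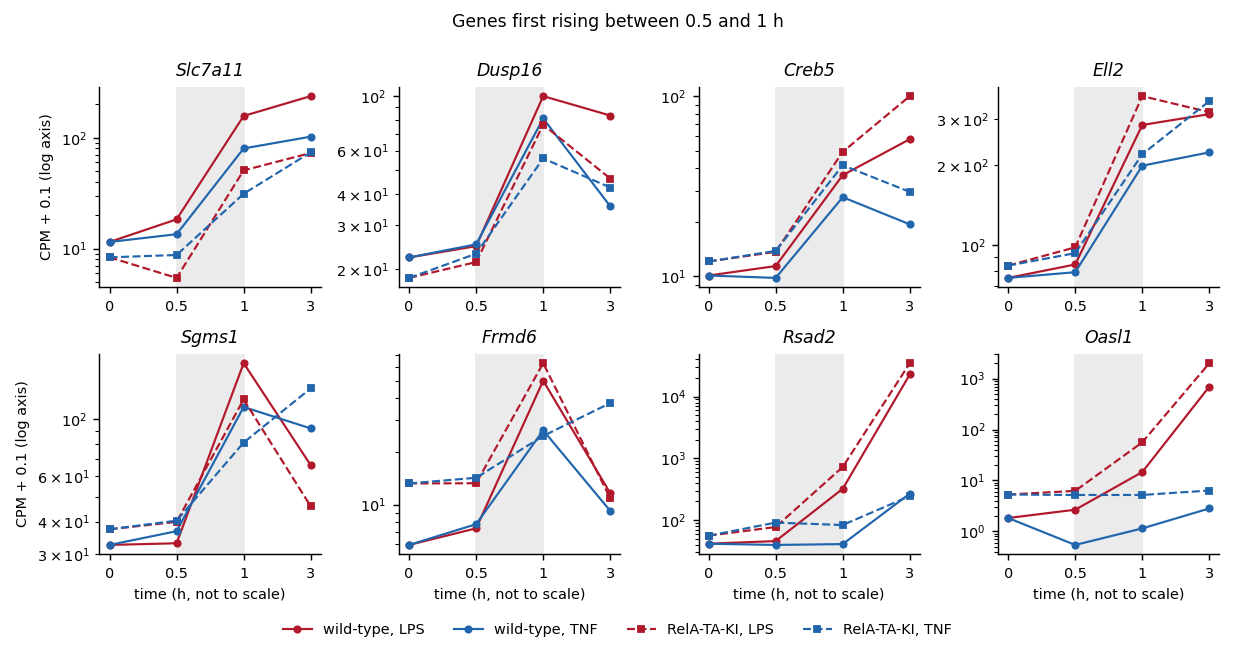
CPM on a log axis (0.1 added to each value) at 0, 0.5, 1 and 3 h for 8 genes first rising at 1 h of LPS, 1 line per genotype and stimulus and 1 library per point. The lines of Dusp16, Creb5 and Ell2 are flat to 0.5 h and climb after both stimuli, while those of Rsad2 and Oasl1 climb after LPS and stay near their 0.5 h levels after TNF (Rsad2 40.7 and 83.0 CPM at 1 h).

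After LPS alone, 166 genes rose and 97 fell from 0.5 to 1 h, 1.47% and 0.858% of those tested, and after TNF 16 rose and 20 fell, 0.141% and 0.177% (edgeR's quasi-likelihood test, adjusted p under 0.05). Under scaling by library totals the LPS split was 128 higher and 121 lower. The LPS calls moved the same way in both genotypes in all 166 and 97 cases. A gene whose genotypes disagree is unlikely to be called, so this agreement follows from the test and is a description. Of the genes called higher, 15 were shared, 9.04% of the LPS set and 93.8% of the TNF set, and of those called lower 12 were shared, 12.4% and 60.0%. Each stimulus rests on 2 pairs: without 1 of the LPS pairs the LPS calls came to 32 higher and 10 to 17 lower, and without 1 of the TNF pairs the TNF calls came to 0 higher and 1 to 3 lower. Without the wild-type TNF pair the TNF call that stayed was that of Btg2. DESeq2, an alternative tool on the same design, called 36 genes higher and 36 lower after TNF.

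The classes of one stimulus were then read in the other. Of the 10 genes already falling after LPS, 8 were called lower after TNF, and of the 31 first rising after LPS, 9 were called higher after TNF, with medians of -1.91 and 0.86 there. Of all tested genes, 0.177% were called lower and 0.141% higher after TNF. Klf6, a zinc-finger factor, went from 954 and 1102 to 509 and 674 CPM after TNF (-0.81 ± 0.10, adjusted p = 0.0025) and from 1380.2 and 1680.4 to 1442 and 1790.03 CPM after LPS (0.08 ± 0.10), and its TNF call was lost without either TNF pair (adjusted p up to 0.537). Plk2, a stress-responsive kinase, went from 384 and 541 to 137 and 215 CPM after TNF (-1.40 ± 0.22, adjusted p = 0.019) and from 868 and 1113 to 889 and 999.96 CPM after LPS (-0.06 ± 0.22), and the test of its difference gave an adjusted p of 0.34. Its TNF call was lost with any of the 4 pairs left out (adjusted p 0.0585 to 0.706). Of the TNF first rising genes, Nab2, a corepressor of EGR factors that overlaps Stat6 and Nemp1, went from 21.8 and 30.6 to 61.0 and 77.8 CPM after TNF (1.42 ± 0.25, adjusted p = 0.038) and from 21.3 and 38.7 to 29.8 and 52.8 CPM after LPS (0.46 ± 0.26, adjusted p = 0.54). Its difference between the stimuli had an adjusted p near 1. The TNF call of Nab2 was lost without either TNF pair, with a change of 1.346 to 1.484 over the fits that leave out a pair.

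The test of the difference itself, the LPS change minus the TNF change, called 10 genes: 9 with a higher LPS change (0.0796% of those tested) and 1, Txnip, with a lower one (0.00884%). Ifit1, an antiviral protein that binds viral RNA, went from 7.40 and 14.6 to 137 and 229 CPM after LPS and from 6.03 and 15.1 to 8.06 and 9.11 CPM after TNF, a difference of 4.29 ± 0.50 (adjusted p = 0.01). Isg15, a ubiquitin-like modifier, went from 6.94 and 13.6 to 73.6 and 95.1 CPM after LPS and from 5.59 and 11.7 to 5.97 and 11.3 CPM after TNF (3.07 ± 0.36, adjusted p = 0.01). Rsad2 (viperin, ENSMUSG00000020641.13, chr12:26442753-26456452, mm10), whose promoter is shown above, went from 45.6 and 77.1 to 321 and 724 CPM after LPS and from 39.4 and 90.9 to 40.7 and 83.0 CPM after TNF (3.11 ± 0.43, adjusted p = 0.03). In each, both LPS libraries of 1 h stood above the other 6 libraries of these times.

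The CC chemokines Ccl4, Ccl7 and Ccl2, which attract monocytes and other leukocytes, had values in opposite directions after the 2 stimuli. Ccl4 rose from 571 and 731 to 1439 and 1641 CPM after LPS (1.25 ± 0.19, adjusted p = 0.0041) and fell from 256 and 379 to 90.4 and 159 CPM after TNF (-1.36 ± 0.20, adjusted p = 0.01), a difference of 2.61 ± 0.27 (adjusted p = 0.0056). Ccl7 rose from 687 and 963 to 1452 and 2007 CPM after LPS and fell from 430.1 and 643 to 158 and 325 CPM after TNF (2.26 ± 0.28, adjusted p = 0.01). The TNF call of Ccl4 was lost without the wild-type TNF pair (adjusted p = 0.114) and that of Ccl7 with any of the 4 pairs left out (adjusted p 0.0835 to 0.665). At 1 h of TNF the wild-type libraries of both were under their unstimulated 99.5 and 199 CPM. Ccl2 rose after LPS from 1102 and 1125 to 2486 and 2241 CPM and stood at 710.01 and 807 and then 364 and 546 CPM after TNF, a step that did not pass the test (-0.74 ± 0.18, adjusted p = 0.16), with a difference of 1.83 ± 0.25 (adjusted p = 0.014). Of the 9 tested CC chemokines, 4 rose after LPS and 2 fell after TNF, and of 15 inflammatory cytokines 4 rose after LPS and none was called after TNF. Of all tested genes, 1.47% rose after LPS, and 0.141% rose and 0.177% fell after TNF.

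Txnip, an inhibitor of thioredoxin and of glucose uptake, went from 88.8 and 189.9 to 27.4 and 45.2 CPM after LPS (-1.90 ± 0.23, adjusted p = 0.001), and from 119 and 165 to 188 and 208 CPM after TNF (0.52 ± 0.21, adjusted p = 0.76). The difference was -2.42 ± 0.32 (adjusted p = 0.014), and its unstimulated level was 220.3 and 319 CPM. Peli1, an E3 ligase of Toll-like receptor signalling, went from 46.3 and 51.3 to 161 and 146 CPM after LPS and from 41.2 and 44.3 to 40.4 and 34.6 CPM after TNF (1.84 ± 0.28, adjusted p = 0.03). Of the differences named here, with Klf6 outside the naming rule and not refitted, none was called with each of the 4 pairs left out in turn, and those of Rsad2, Txnip and Peli1 lost the call under every such fit, each with its sign unchanged.

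**Figure D4:**
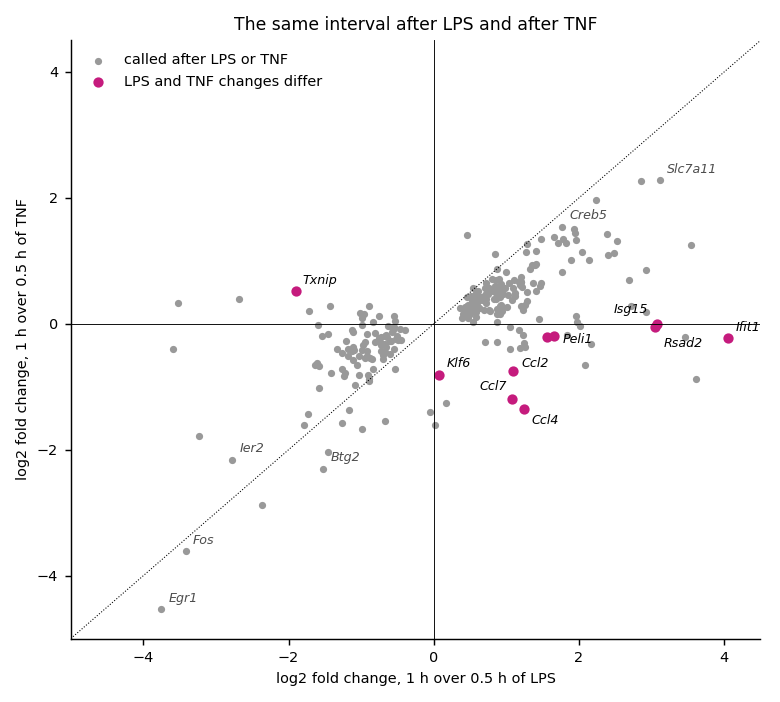
Log2 fold change from 0.5 to 1 h of LPS (x axis) against that of TNF (y axis), for the 270 genes called after at least 1 stimulus or in the test of the difference, with a dotted line of equality. Genes beyond the axis limits are not drawn, among them Ifnb1 (7.61 after LPS). The 10 genes whose changes differed are in pink, 9 of them with their names: Ccl4 and Ccl7 lie right of 0 and below it, and Ifit1, Isg15 and Rsad2 lie far right and near 0 on the y axis.

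Among 32 tested interferon-stimulated genes, 7 rose after LPS and none fell, beside 1.47% and 0.858% of all tested genes, and none was called after TNF, where 0.141% of all genes rose. The 7 were Ifit1, Isg15, Rsad2, Oasl1, Ifit2, Ifih1 and Cmpk2, the call of Ifit2 was lost with any pair left out (adjusted p 0.0549 to 0.466), and the list's median was 0.42 after LPS and -0.08 after TNF. Ifnb1 itself held 8 counts over both genotypes at 0.5 h of LPS and 1205 at 1 h (0.302 and 0.972 CPM, then 93.1 and 137 CPM), with a change of 7.61 ± 0.74 (adjusted p = 0.00081). After TNF it had 0 counts at 0.5 h and 2 at 1 h, so no change was detectable there. Oasl1, a member of the oligoadenylate synthetase-like family that overlaps the gene model Gm13822, went from 2.57 and 6.15 to 14.5 and 56.1 CPM after LPS (2.92 ± 0.41, adjusted p = 0.0041). Its call was lost without the knock-in LPS pair (adjusted p = 0.233). By 3 h of LPS Rsad2 was at 22817 and 34739.6 CPM and Ifit1 at 5046 and 9002 CPM.

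Of the lists of NF-kB feedback, survival and receptor signalling, each had 3 members that rose over the 4 pairs, beside 1.67% of all tested genes. Of 16 NF-kB family and feedback genes, 3 rose over the 4 pairs and none fell: Relb (1.35 ± 0.26), Nfkbib (0.78 ± 0.14) and Rela (0.49 ± 0.10). Rela was called in 0 of the 4 fits that leave out a pair (adjusted p 0.0552 to 0.247), and Relb and Nfkbib, which overlaps Sirt2, in 1 each (up to 0.331 and 0.139). Relb, a subunit of the alternative NF-kB pathway, went from 16.1 and 8.91 to 62.7 and 14.7 CPM after LPS and from 16.2 and 10.2 to 47.1 and 16.2 CPM after TNF, so that the wild-type libraries of 1 h stood apart from the other 6. Of 18 survival, adhesion and adaptor genes, 3 rose, Cflar (1.06 ± 0.13), an inhibitor of caspase-8, Mcl1 (0.39 ± 0.09), a BCL2-family protein, and Cd44 (0.40 ± 0.06), the hyaluronan receptor. Cflar was called with any pair left out, Cd44 in 2 of the 4 fits and Mcl1 in 0 (adjusted p up to 0.255), and the pair block ended the Cflar call (adjusted p = 0.133). Of 20 genes of TLR4 and TNF receptor signalling, Irak2 (0.94 ± 0.18), Ticam1 (0.90 ± 0.13) and Tnfrsf1b (0.97 ± 0.19) rose and none fell. Tnfrsf1b was called in 0 of the 4 fits that leave out a pair (adjusted p up to 0.253), Irak2 in 2 and Ticam1 in 3, and the pair block ended the calls of Relb (adjusted p = 0.0514), Tnfrsf1b (0.0805) and Irak2 (0.106). No tested gene was called among 20 cell cycle, 16 cholesterol synthesis and 18 cytosolic ribosomal protein genes.

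The question of whether the interval differed between genotypes was tested with the knock-in change minus the wild-type change, averaged over both stimuli. No gene was called in either direction (0% of those tested) by edgeR's quasi-likelihood test, with 246 at an unadjusted p under 0.05. DESeq2 on the same genes called 4, limma-voom none, and edgeR without the filter on low counts 15. The 4 were named after their values were seen. Nfkbia, the inhibitor of NF-kB, stood in wild-type cells at 1599 and 1677 CPM at 0.5 and 1 h of LPS and at 1079 and 409.7 CPM at 0.5 and 1 h of TNF. In knock-in cells it stood at 186 and 431 CPM and at 112 and 178 CPM. The ratio of 1 h to 0.5 h was thus higher in the knock-in after either stimulus (difference 1.60 ± 0.27, adjusted p = 0.44 by edgeR and 0.00283 by DESeq2).

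Tnfaip3 (A20), a deubiquitinase that limits NF-kB signalling, went from 1252 to 1768 CPM in wild-type and from 138 to 429.6 CPM in knock-in cells after LPS, and from 736 to 159 and 97.8 to 72.7 CPM after TNF (1.44 ± 0.26, adjusted p = 0.54 by edgeR and 0.00456 by DESeq2). Tnf went from 2460.3 to 3005 CPM in wild-type and 574 to 1835 CPM in knock-in cells after LPS. After TNF it went from 365 to 83.7 CPM in wild-type and from 72.2 to 129.7 CPM in knock-in cells (2.14 ± 0.44, adjusted p near 1 by edgeR and 0.00283 by DESeq2). In these 3 genes the genotypes stood closer together at 1 h than at 0.5 h after both stimuli. Nod2, an intracellular sensor of bacterial peptidoglycan, had values in the other direction: it went from 4.23 to 20.4 CPM in wild-type and from 6.80 to 2.35 CPM in knock-in cells after LPS, and from 5.74 to 15.8 CPM and from 4.42 to 2.19 CPM after TNF (-3.15 ± 0.69, adjusted p near 1 by edgeR and 0.00456 by DESeq2). The genes of the largest falls went down in both genotypes, and the difference for Egr1 was -0.28 ± 0.53, for Fos -0.90 ± 0.51 and for Btg2 -0.25 ± 0.19, none called. Ier2, another of the largest falls, was among the 15 genes that edgeR called without the filter on low counts. Its difference there was -1.329 (adjusted p = 7.98e-08), a steeper fall in the knock-in. Irak2, printed above as a rise, was called in that fit too (-0.878, adjusted p = 0.0101).

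**Figure D5:**
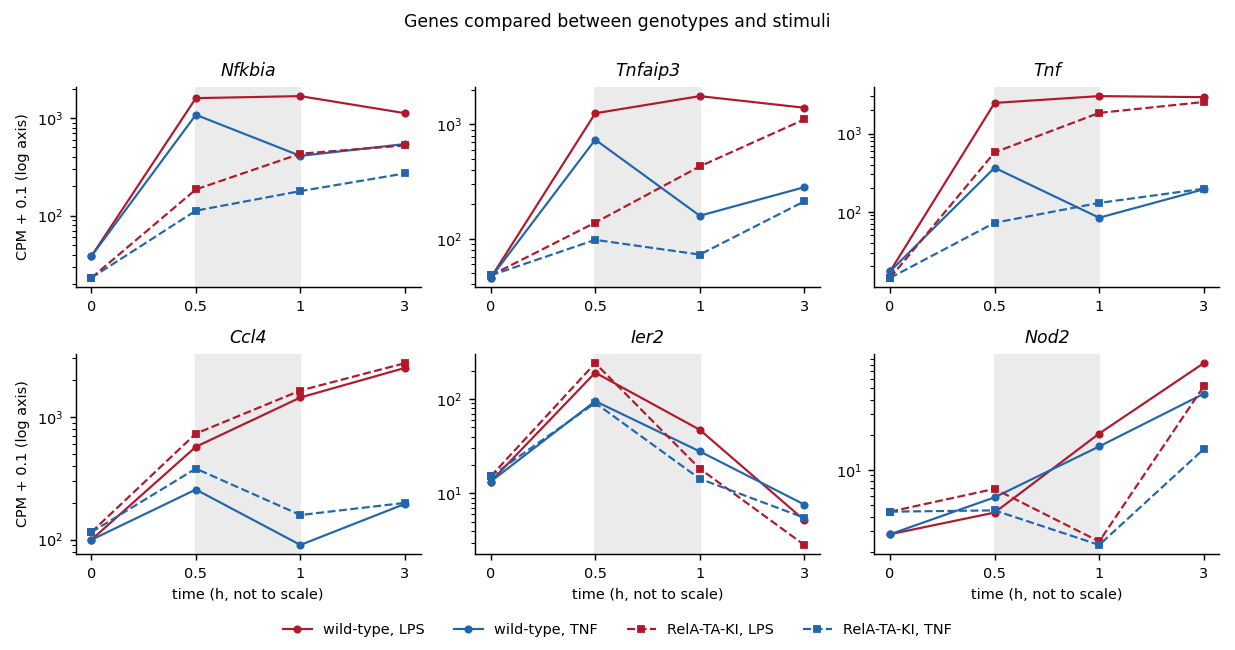
CPM on a log axis (0.1 added to each value) at 0, 0.5, 1 and 3 h for 6 genes, with wild-type as solid and knock-in as dashed lines and 1 library per point. Across the shaded interval Nfkbia and Tnf after TNF go down in the wild-type line and up in the knock-in line, Nod2 goes up in wild-type and down in knock-in, and Ccl4 separates by stimulus.

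The classes were then followed to the later times, whose levels were not part of the class rule although all 18 libraries entered the fit behind the calls. The 10 genes already falling after LPS had medians over unstimulated cells of 4.11 at 0.5 h, 1.45 at 1 h and 0.02 at 3 h on the log2 scale, and 3 of them were still at least 1 above at 3 h while 2 were at least 1 below. The 31 first rising after LPS had medians of 0.20, 1.63, 2.50 and 2.86 at 0.5, 1, 3 and 8 h, and 22 were at least 1 above at 3 h. After TNF the 11 falling genes had medians of 2.36, 0.74 and 0.50 at 0.5, 1 and 3 h. The 6 first rising after TNF had medians of 0.02, 1.34, 0.89 and 0.35 at 0.5, 1, 3 and 8 h. Ratios over unstimulated cells share the 2 unstimulated libraries across times and stimuli.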

How the data were processed

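The authors deposited 1 table of raw counts per gene for 18 libraries, with 45706 genes, of which 24529 are at 0 throughout. Per the labels' protocols, poly(A) RNA was made into stranded libraries with 12 PCR cycles and read single-end over 50 bases. Per the submitters' processing notes, reads were processed against mm10 with cutadapt 1.12, STAR and featureCounts 1.5.0, and DESeq2 is also named, while the strand setting of the counting is not given in the sources used here. Of the printed genes, Arg2, Nab2, Nfkbib, Noct and Oasl1 overlap another tested gene and are less certain. Slc7a11, Jun, Ell2, Peli1, Sgms1, Txnip, Ccl2, Cd44, Zc3h12c and Phlda1 overlap genes with too few counts to be tested.

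From these counts, genes were kept by edgeR's filterByExpr (minimum count 10, minimum total 15), which left 11308, and scaled by TMM. edgeR 4.0.16 (R 4.3.3) fitted 9 conditions plus genotype to all 18 libraries with robust quasi-likelihood, leaving 8 residual degrees of freedom and a common biological coefficient of variation of 0.111. The genotype difference used separate genotype effects and 6 degrees of freedom. p-values were adjusted by Benjamini-Hochberg over all tested genes, with a threshold of 0.05. CPM values use TMM-scaled totals. With 1 library per group there is no SD within a group, and the spread comes from how the genotypes depart from the additive model, so a true genotype effect on the change widens it.

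Named genes were those with the largest changes among called genes with a mean log2 CPM of at least 1 that are not gene models. They were 12 per direction for the mean and 12 per class and stimulus, with the same sign in all pairs compared. Without that sign limit came 8 per direction for the difference between stimuli and 5 per direction for the genotype difference. Up to 4 members per list were taken without limits on sign or CPM, the most expressed one where none was called. Not all of these are printed. Chosen outside the rule, after their values were seen, are Klf6 in the test of the difference, the 4 genes DESeq2 called between genotypes, Map3k1, Zfp292, Zfp710, Ifnb1 and the members of lists printed beyond that number or without a call (Fosb, Junb, Atf3, Maff, Egr2, Nr4a3, Spred1). Ier2 and Irak2 in the test between genotypes were also chosen after their values were seen. The comparison, lists and rules were chosen with earlier results of these data known. Alternatives were DESeq2 1.42.0, limma-voom (limma 3.58.1), other scalings and filters, a fit of the 8 libraries with the pair as a block, and leaving out each pair. For 1 of the genes called in the test of the difference between stimuli, the result is not reported here.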

Additional observations from a re-analysis of the deposited data

Results flagged for a closer look

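The change from 0.5 to 1 h differed between LPS and TNF in 10 genes by edgeR's quasi-likelihood test of the difference, given here as the LPS change minus the TNF change on the log2 scale. Those reported here were 4.29 for Ifit1, 3.11 for Rsad2, 3.07 for Isg15, 2.61 for Ccl4, 2.26 for Ccl7, 1.84 for Peli1, 1.83 for Ccl2, 0.89 for Klf6 and -2.42 for Txnip.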

How the results depend on the processing

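Over the alternatives run, the 110 named changes gave 1272 values, of which 1016 kept direction and side of the threshold, 254 kept direction and lost the call, 2 gained it and 0 turned direction. The 8 libraries alone, with the pair as a block, gave 470 genes higher and 376 lower, holding 132 of the 189 and 125 of the 149. DESeq2 called 36 genes higher and 36 lower after TNF, 31 with a higher change after LPS than TNF, 66 higher at 0.5 h of TNF than in unstimulated cells and 4 between genotypes, and gave 18 genes already falling and 10 first rising after TNF. Without the filter on low counts the numbers were 15 between genotypes, 0 with a lower change after LPS than TNF, and 7 already falling after TNF. With no limit on the change at 0.5 h, 66 genes were first rising after LPS, and with a rise of at least 2 on the log2 scale at 0.5 h, 7 were already falling after TNF. Leaving out each pair in turn gave 41 to 93 genes higher and 25 to 46 lower for the mean, 32 to 97 and 10 to 44 after LPS, 0 to 15 and 1 to 20 after TNF, and 0 to 4 and 0 to 0 for the difference between stimuli. The genes higher at 0.5 h than in unstimulated cells then numbered 64 to 83 for LPS and 19 to 41 for TNF, those already falling 4 to 8 and 1 to 12, and those first rising 13 to 23 and 0 to 6. Of 51 named mean changes, 18 were called with any pair left out and 14 with none, and of 17 named TNF changes 1 and 2. The cause was not tested. Library totals shifted the median change by -0.04. Genes with few counts at 0.5 h, such as Ifnb1 and Dusp14, are limited by depth.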
